A study of Mus musculus with 12 samples.

Results

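The isolation effect shared by the 2 brain regions of this mouse data set was read from all 12 of its 12 RNA-seq libraries, 6 from mice isolated early in life against 6 from group-housed mice, with region as a blocking factor. The mice were C57BL/6, and total RNA was taken from punches of cerebrum labelled BLA and VTA, depleted of ribosomal RNA and sequenced from strand-preserving libraries. The 4 groups of 3 libraries are early social isolated BLA, group-housed BLA, early social isolated VTA and group-housed VTA. The design text gives male mice for BLA and female mice for VTA, so region and sex cannot be told apart, and a shared effect is one shared by male BLA and female VTA. The ages of the mice, the length of isolation, the number of mice behind a library and any genotype other than the strain are not stated in these sources. Nothing in them says that the 3 libraries of a group come from separate animals, so p-values measure only the spread between these libraries.

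Rearing without cage mates is a widely used stressor in mice, and it is known for lasting changes in anxiety, social behaviour and reward seeking. Rps2, the gene set in front of the comparison, encodes a protein of the small ribosomal subunit, which reads messenger RNA during protein synthesis. Ribosomal protein genes are transcribed together at high level in every cell, and processed copies of them, made by reverse transcription of their messenger RNA, are scattered through the mouse genome.

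Counts per library totalled 28277721 to 69270051. Reads at 3 loci known to collect ribosomal RNA (Lars2, CT010467.1 and Gm15564) made up 18.6% of isolated BLA library 3, 28.6% of group-housed BLA library 1 and 41.8% of group-housed BLA library 2, against at most 1.57% elsewhere. Without these loci the totals were 16470738 to 68954088. Slc6a3, the dopamine transporter, ranged from 268 to 599 CPM (read counts scaled to a common library size by the TMM method) in VTA and reached at most 1.24 CPM in BLA. Slc17a7, a glutamate transporter of cortical and amygdalar neurons, stood at 512 CPM or more in BLA. In VTA it ranged from 9.45 to 262 CPM in isolated libraries and from 3.36 to 6.03 in group-housed ones. In bulk tissue, fewer cells of a type and less RNA per cell cannot be told apart.

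Few genes differed with isolation in the same way in both regions. Of 24433 genes tested, 1 passed the shared test (0.00409% called, edgeR's quasi-likelihood test, Benjamini-Hochberg adjusted p under 0.05), namely Prl, whose counts lie almost wholly in VTA. DESeq2 called 5 genes (0.0205%), Rps2, Prl, Gm9866, 3110053B16Rik and Atp6v0c, all of them higher after isolation. At an unadjusted p under 0.05, 695 genes were higher and 569 lower, together 5.17% of those tested. Asking for both regions at once, by the larger of the p-values of a gene's BLA and VTA effects, left 0 genes after adjustment in edgeR (0%), 18 at an unadjusted p under 0.05 (0.0737%; 13 or 0.0532% higher and 5 or 0.0205% lower), and 1, Rps2, in DESeq2. These numbers frame every gene that follows: apart from Prl, all are described by their values and none passed edgeR's adjusted test of the shared effect.

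Across genes the responses of the regions pointed apart more often than together. The log2 fold changes of BLA and VTA had the same sign in 42.9% of all genes tested and opposite signs in 57%. Pearson's r between the regions' log2 fold changes was -0.113 over 24433 genes and -0.181 over the 16549 genes with a mean of at least 1 CPM, as a description across genes, which are not independent replicates. Of the 100 genes with the smallest p in BLA, 29% had the same sign in VTA, and of the 100 with the smallest p in VTA, 32% had the same sign in BLA. Isolated and group-housed libraries did not overlap in either region for 66 genes higher in both (0.27%) and 64 lower in both (0.262%), while 349 (1.43%) were separated in opposite directions. Taken singly, groups were separate for 7.43% of genes in BLA and 27.4% in VTA. A test of the difference between regions called 0 genes in edgeR (3366, 13.8%, at an unadjusted p under 0.05) and 143 in DESeq2.

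**Figure D1:**
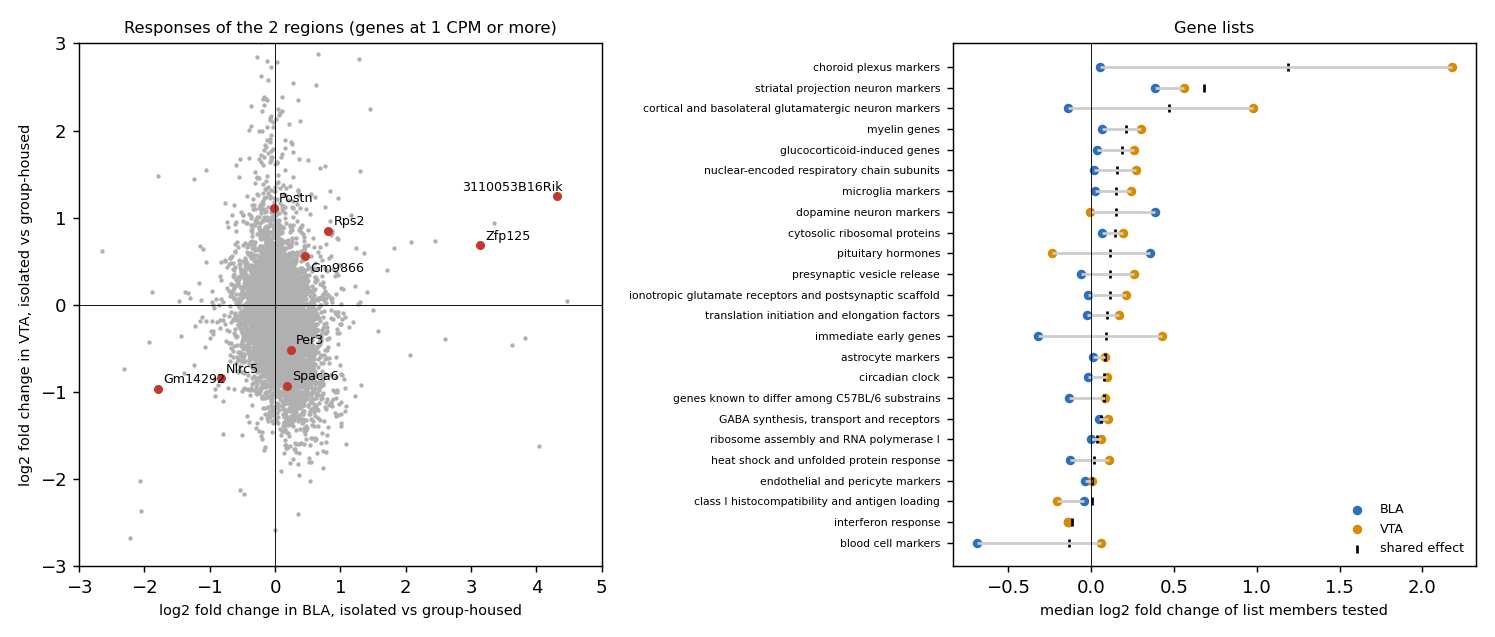
Left: log2 fold change of isolated against group-housed libraries in BLA (x axis) and VTA (y axis) for the 16509 of 16549 genes at 1 CPM or more that fall inside the axes, with named genes in red. Right: median log2 fold change of the tested members of each gene list in BLA (blue), VTA (orange) and the shared fit (black tick), with the choroid plexus median at 0.05 in BLA and 2.18 in VTA and the ribosomal protein medians at 0.06 and 0.19. Genes spread along the VTA axis rather than along the diagonal, and Rps2 and Gm9866 lie in the upper right.

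The start regions of the named genes with the smallest p among those higher in both regions that have a RefSeq entry are shown so that the sequence at these starts can be read beside their values; none of these genes passed edgeR's adjusted test. Of the 12 genes named as higher, 7 matched the RefSeq promoter table (GRCm38.p6), and the first 4 of them are given, each 5′ to 3′ with 250 bases before and 50 after the annotated start. They are Rps2 at chr17:24719813-24720112 on the plus strand, Gm9866 at chr12:27160467-27160766, Atp6v0c at chr17:24169629-24169928 and Dact2 at chr17:14203782-14204081, the last 3 on the minus strand. Atp6v0c has 3 starts in the table, and the one nearest to the annotated 5′ end was used. The Rps2 window lies inside chr17:24718116-24721929, the span of Rps2 in the GENCODE annotation, because its RefSeq start is downstream of the start of that span. Capitals mark matches, on either strand, to a TATA box (TATAAA) or a GC box (GGGCGG).
Rps2: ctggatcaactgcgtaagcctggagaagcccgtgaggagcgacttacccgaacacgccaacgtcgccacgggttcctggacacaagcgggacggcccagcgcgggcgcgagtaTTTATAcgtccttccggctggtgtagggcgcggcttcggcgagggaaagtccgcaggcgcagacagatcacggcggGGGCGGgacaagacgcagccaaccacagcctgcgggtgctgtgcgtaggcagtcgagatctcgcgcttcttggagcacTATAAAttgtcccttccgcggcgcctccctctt
Gm9866: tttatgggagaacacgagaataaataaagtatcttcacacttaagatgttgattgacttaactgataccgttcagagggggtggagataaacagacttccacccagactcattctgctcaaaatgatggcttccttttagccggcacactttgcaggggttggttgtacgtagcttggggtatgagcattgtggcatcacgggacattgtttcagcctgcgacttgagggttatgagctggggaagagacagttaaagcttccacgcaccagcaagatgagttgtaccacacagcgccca
Atp6v0c: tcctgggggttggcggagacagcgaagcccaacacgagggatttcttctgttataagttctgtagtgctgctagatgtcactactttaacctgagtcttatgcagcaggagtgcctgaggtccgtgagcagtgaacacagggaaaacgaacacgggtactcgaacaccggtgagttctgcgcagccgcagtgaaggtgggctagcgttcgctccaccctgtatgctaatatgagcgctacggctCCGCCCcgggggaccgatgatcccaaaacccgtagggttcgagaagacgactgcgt
Dact2: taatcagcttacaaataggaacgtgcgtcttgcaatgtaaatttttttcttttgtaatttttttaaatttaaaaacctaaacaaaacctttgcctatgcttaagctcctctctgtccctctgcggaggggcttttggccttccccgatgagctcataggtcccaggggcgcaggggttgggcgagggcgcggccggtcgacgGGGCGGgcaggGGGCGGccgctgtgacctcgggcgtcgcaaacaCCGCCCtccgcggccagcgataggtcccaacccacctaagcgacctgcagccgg
The Rps2 window held 2 TATAAA matches, beginning at -137 and 18 from the start, and 1 GGGCGG match at -61. Atp6v0c held 1 GGGCGG match and Dact2 held 3, while Gm9866 held neither motif. TATAAA occurs in 13.6% and GGGCGG in 35.7% of all 32851 promoters of that table. None of the 4 windows held CCAAT (37.4% of promoters), CACGTG (7.15%), TGACGTCA (1.79%) or the consensus glucocorticoid receptor element (0.0578%). No match overlapped another, and a match is a description of the sequence only.

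Rps2 lies at chr17:24718116-24721929 (mm10) on the plus strand. In BLA it stood at 159.8, 110.0 and 132.4 CPM after isolation, against 86.9, 76.9 and 65.0 CPM in group-housed libraries. In VTA it stood at 107.6, 84.4 and 138.5 CPM after isolation, against 64.9, 59.7 and 54.9 CPM. Every isolated library was above every group-housed library of its region. The shared log2 fold change was 0.85 (SE 0.12), a 1.80-fold difference, with an adjusted p of 0.0566 in edgeR's quasi-likelihood test and 2.46e-06 in DESeq2. The effect was 0.81 (SE 0.15) in BLA and 0.85 (SE 0.17) in VTA, and their difference was -0.07 (SE 0.25, unadjusted p = 0.795 in edgeR). The estimated difference between the regions was smaller than its error, which does not show equal effects. The antisense gene Snhg9 lies inside Rps2, and the start region printed above overlaps it. The strand setting of the counting is not given, so reads of the pair may be shared; Snhg9 itself stood at 0.777 CPM or less in every library.

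Entries for copies of Rps2 bear on its values. The count table holds 10 entries named as Rps2 copies, and their summed level was 6.73, 18.1 and 5.53 CPM in isolated BLA libraries against 26.7, 13.5 and 31.6 CPM in group-housed ones. In VTA it was 3.36, 7.73 and 5.05 CPM in isolated libraries against 9.73, 13.3 and 12.7 CPM in group-housed ones. The copies were thus lower where Rps2 was higher, with separate groups in VTA and overlapping groups in BLA. Most of this came from Rps2-ps10, which ranged from 0.712 to 9.20 CPM in isolated and from 6.87 to 20.5 CPM in group-housed BLA, and from 0.0770 to 4.18 CPM in isolated and from 3.82 to 7.84 CPM in group-housed VTA. Relative to Rps2 itself the copies held from 3.12% to 48.5% of its counts. With the counts of Rps2 and its copies summed, an alternative added after the data were seen, isolated libraries ranged from 128 to 166 CPM in BLA against 90.4 to 114 CPM in group-housed ones, and from 92.2 to 144 CPM in VTA against 67.6 to 74.6 CPM. The groups stayed apart in both regions, and the shared log2 fold change was 0.61 (SE 0.10; adjusted p = 0.188 in edgeR). Whether reads of Rps2 were placed on its copies, or the reverse, was not tested.

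**Figure D2:**
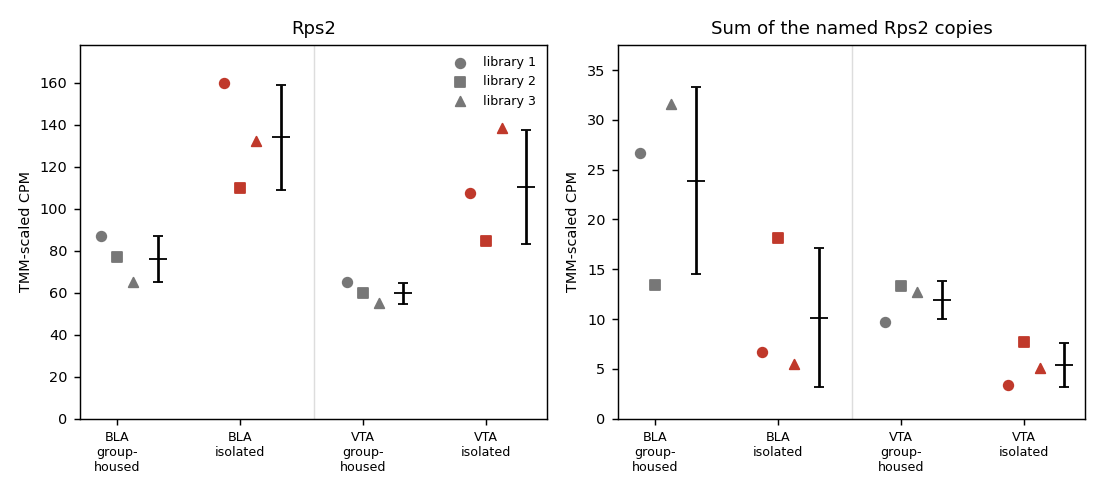
TMM-scaled CPM of Rps2 (left) and of the 10 named Rps2 copies summed (right) in each of the 12 libraries, with the mean and SD of each group of 3 in black. Rps2 is higher in isolated libraries of both regions. The copies are lower in isolated VTA libraries, while the groups overlap in BLA, where the copies reach 31.6 CPM in group-housed library 3.

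Gm9866 is a long intergenic noncoding RNA at chr12:27050950-27160633, with no function assigned here. It stood at 67.8, 48.2 and 51.1 CPM in isolated BLA against 42.8, 39.4 and 38.7 CPM in group-housed BLA, and at 77.9, 60.8 and 72.9 CPM in isolated VTA against 43.6, 46.6 and 49.5 CPM in group-housed VTA. The groups did not overlap in either region. Its shared log2 fold change was 0.53 (SE 0.09; adjusted p = 0.152 in edgeR and 0.00199 in DESeq2), from 0.46 (SE 0.13) in BLA and 0.57 (SE 0.10) in VTA.

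Atp6v0c encodes the membrane ring subunit of the vesicular proton pump, which acidifies synaptic vesicles and lysosomes, and lies at chr17:24163866-24169702. It stood at 63.6, 53.0 and 59.4 CPM in isolated VTA against 36.7, 32.5 and 39.2 CPM in group-housed VTA, without overlap. In BLA the groups overlapped, with 80.8, 61.1 and 103.9 CPM in isolated libraries against 63.7, 59.2 and 38.8 CPM. The shared log2 fold change was 0.65 (SE 0.13; adjusted p = 0.828 in edgeR and 0.0340 in DESeq2).

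The next genes named as higher in both regions all had an adjusted p of 0.828 in edgeR. Rnps1, a splicing factor that joins the exon junction complex, stood at 78.6 to 98.1 CPM in isolated and 63.7 to 74.7 CPM in group-housed BLA, and at 72.7 to 83.9 CPM against 58.2 to 68.5 CPM in VTA (shared log2 fold change 0.31, SE 0.08). Smndc1, another splicing factor, had a shared log2 fold change of 0.35 (SE 0.09), and Pak2, a kinase of the actin cytoskeleton, one of 0.23 (SE 0.06). Dact2, a modulator of Wnt signalling, stood at 42.1 to 52.3 against 32.6 to 38.0 CPM in BLA and at 20.05 to 23.7 against 16.7 to 19.7 CPM in VTA (shared 0.34, SE 0.08). For these 4 genes isolated and group-housed libraries did not overlap in either region. Wdfy1, which codes for an endosomal protein, was at 75.2 to 78.5 CPM in isolated BLA against 46.0 to 53.4 CPM, but overlapped in VTA (shared 0.48, SE 0.11). 2210418O10Rik differed by 1.93 (SE 0.48) at a mean of 1.05 CPM, with overlap in BLA.

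**Figure D3:**
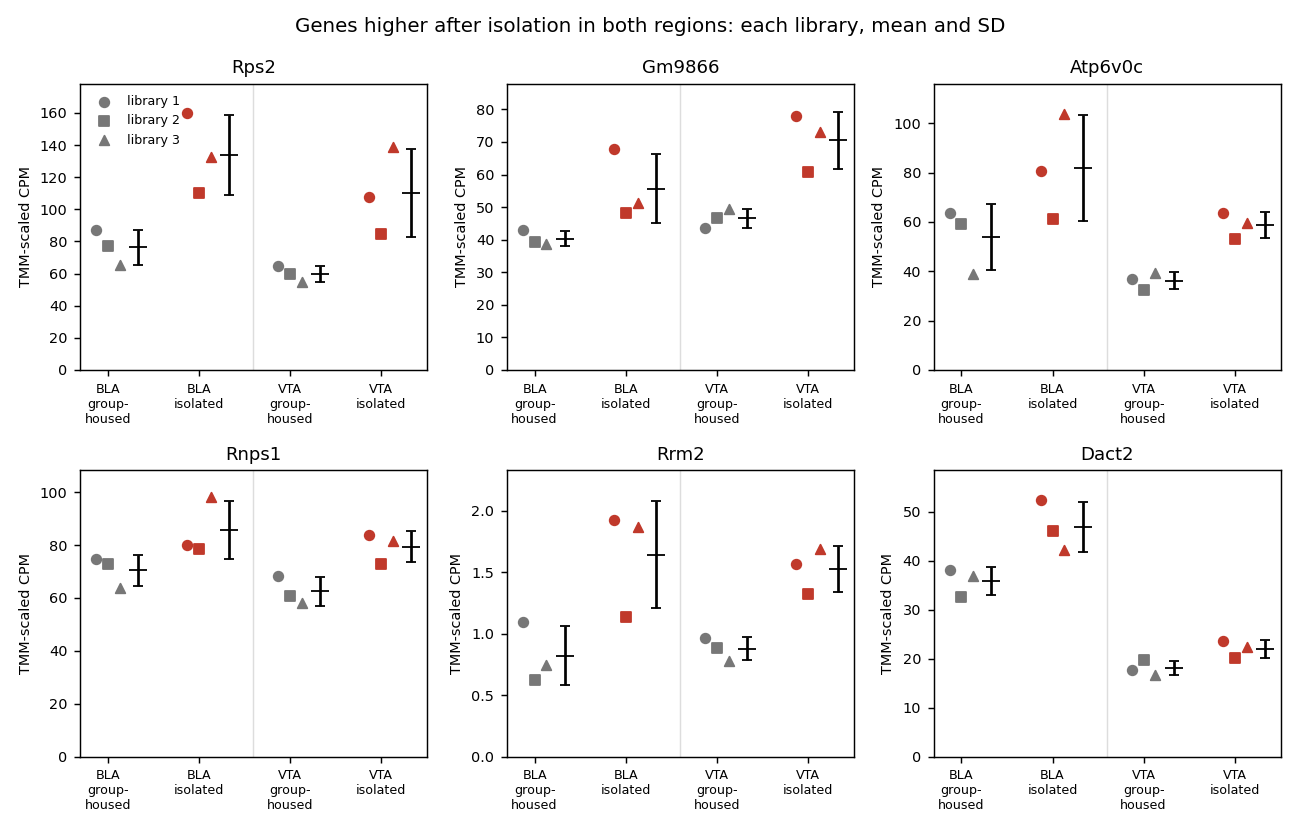
TMM-scaled CPM of 6 genes with a positive shared effect in each of the 12 libraries, with the mean and SD of each group of 3 in black. Isolated libraries (red) sit above group-housed libraries (grey) of the same region without overlap in all panels except Atp6v0c in BLA, where isolated library 2 (61.1 CPM) lies below group-housed library 1 (63.7 CPM).

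A run of genes on chromosome 12 near Gm9866 had the same direction. Rrm2, a subunit of ribonucleotide reductase that supplies building blocks of DNA, stood at 1.92, 1.14 and 1.87 CPM in isolated and 1.09, 0.625 and 0.748 CPM in group-housed BLA, and at 1.56, 1.32 and 1.69 CPM against 0.964, 0.887 and 0.781 CPM in VTA. The groups were apart in both regions (shared 0.88, SE 0.21). Gm19196, a transcribed pseudogene, had a shared log2 fold change of 0.87 (SE 0.21), with overlap in BLA. The transcribed pseudogene Zfp125, named after its values were seen, stood at 8.004, 2.20 and 4.84 CPM in isolated BLA against 0.437, 0.903 and 0.505 CPM, and at 8.08, 8.14 and 7.61 CPM in isolated VTA against 2.89, 5.69 and 5.89 CPM. 3110053B16Rik covers the whole of Zfp125 on the same strand and shows nearly the same picture at lower level (shared 2.34, SE 0.57; adjusted p = 0.828 in edgeR and 0.00429 in DESeq2; counts of 0, 4 and 5 in group-housed BLA), so the reads of these entries may be divided between them.

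Counted by chromosome, chromosomes 12 and 17 held more of these genes than their share of the genes tested. Chromosome 17, with 4.35% of the genes tested, held 14 of the 100 genes with the smallest p, and chromosome 12, with 4.29%, held 11. Of the 18 genes at an unadjusted p under 0.05 in both regions with 1 sign, 6 lay on chromosome 12 and 5 on chromosome 17. Within 5 Mb of Rrm2, and with Rrm2 itself counted, 11 of 37 genes at 1 CPM or more (29.7%) had an unadjusted p under 0.05 for the shared effect, all of them higher, against 5.76% of the 625 others on chromosome 12 and 5.46% of all genes at that level. These 11 include Mboat2 (0.19, SE 0.06), an acyltransferase of membrane lipids, Id2 (0.22, SE 0.08), an inhibitor of helix-loop-helix factors, Cmpk2 (0.23, SE 0.07), a mitochondrial nucleotide kinase, and the ribosomal protein gene Rps7 (0.20, SE 0.08). Within 5 Mb of Rps2, itself counted, 17 of 196 genes (8.67%) had such a p, 14 higher and 3 lower, against 6.95% of the 561 others on chromosome 17. Within 1 Mb it was 10 of 69 (14.5%), 7 higher and 3 lower, against 6.69% of the 688 others. These 10 include Atp6v0c, Rnps1 and Tbl3 (0.27, SE 0.08), a gene of ribosome assembly, as higher and 9530082P21Rik and D330041H03Rik as lower. The anchors and windows were chosen after the values were seen, and several genes counted were already named for their small p, so these shares carry no test and are no support for a local effect.

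**Figure D4:**
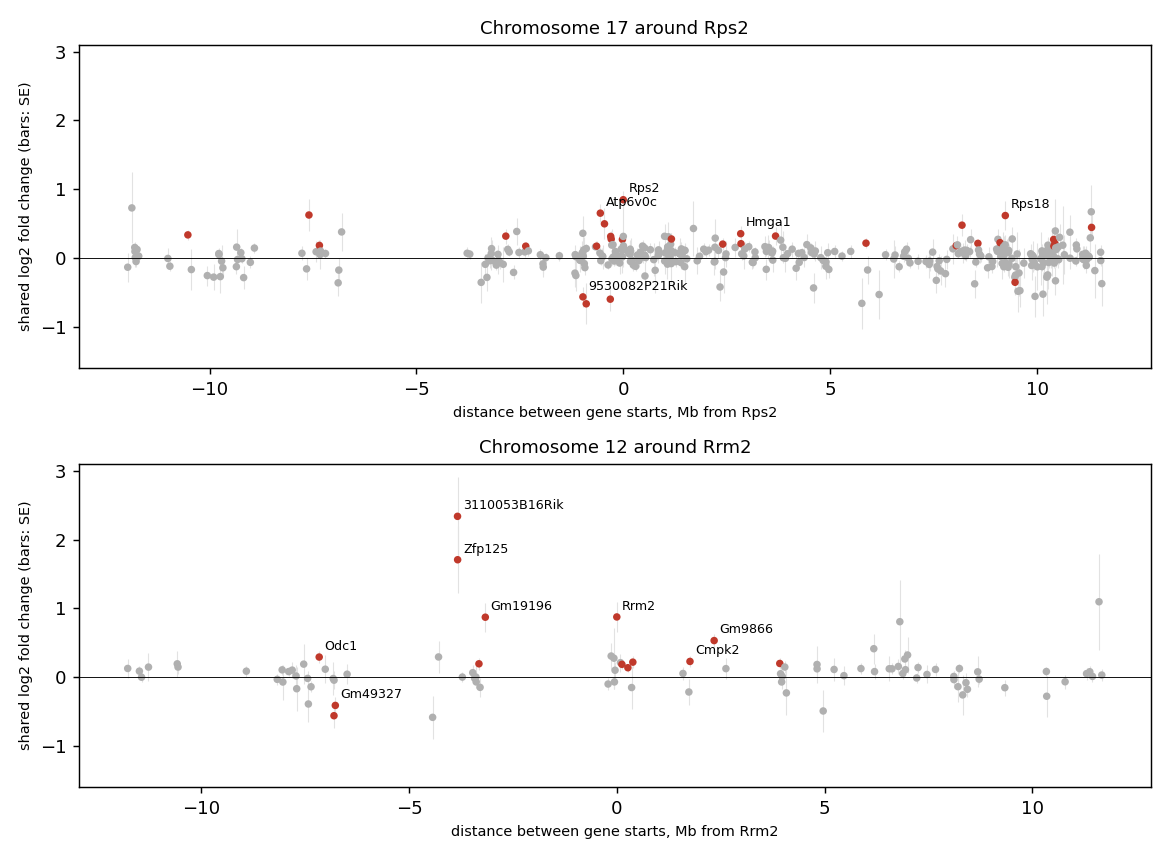
Shared log2 fold change with its SE (y axis) against distance from Rps2 on chromosome 17 and from Rrm2 on chromosome 12 in Mb (x axis), for genes at 1 CPM or more; red marks an unadjusted p under 0.05. Within 5 Mb of Rrm2 all 11 red genes are above 0, while within 1 Mb of Rps2 there are 7 above and 3 below.

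The genes lower in both regions were mostly of low level, again with an adjusted p of 0.828 in edgeR throughout. Lrrc71, which codes for a leucine-rich repeat protein, stood at 0.431 to 0.622 CPM in isolated against 0.780 to 1.32 CPM in group-housed BLA, and at 1.41 to 2.07 against 2.23 to 3.98 CPM in VTA (shared -0.92, SE 0.22). The noncoding 9530082P21Rik, about 1 Mb from Rps2, stood at 2.73 to 3.27 against 3.53 to 4.72 CPM in BLA and at 3.27 to 5.14 against 5.89 to 7.38 CPM in VTA (shared -0.56, SE 0.14). Irx6, a homeobox gene, had a shared log2 fold change of -0.96 (SE 0.29), and the processed pseudogene Gm14292 one of -1.36 (SE 0.36). For these 4 genes the groups did not overlap in either region.

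Fbln1, a matrix glycoprotein, was separate in BLA alone (shared -0.45, SE 0.14). Nlrc5, the main activator of class I histocompatibility genes, stood at 0.415 to 0.734 CPM in isolated and 0.707 to 1.12 CPM in group-housed BLA, where 1 isolated library lay within the group-housed range, and at 1.00 to 1.65 against 1.96 to 2.81 CPM in VTA (shared -0.82, SE 0.23). A further 5 lower genes, Gm43365, D330041H03Rik, Gm19327, Gm49327 and Gm7993, are tentative, noncoding or pseudogene entries with effects from -0.41 (Gm49327) to -0.96 (Gm7993), separate in VTA and overlapping in BLA.

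Prl, the pituitary hormone prolactin and the only gene that passed edgeR's test, gave 43, 49 and 161 counts in isolated VTA against 4, 3 and 4 in group-housed VTA. In BLA it gave 2, 0 and 0 counts in isolated and 0 in each group-housed library. All VTA isolated libraries were thus above all VTA group-housed ones, and BLA held too few counts for a comparison. The shared log2 fold change was 4.62 (SE 0.64; adjusted p = 0.0480 in edgeR), a VTA value in a fit over both regions, since the BLA effect had an unadjusted p of 0.339 in the same tool. Gh, growth hormone, went the same way in VTA, with 19, 24 and 49 counts in isolated and 0 in each group-housed library, while its only BLA counts were 6 in group-housed library 1. Pomc, the hormone precursor of another pituitary cell type, stood at 24.7, 6.404 and 2.42 CPM in group-housed VTA and at 2.10 to 2.18 CPM in isolated VTA, so the hormones did not move as 1 group. The summed level of the 7 hormones was 6.47 to 9.60 CPM in isolated and 6.15 to 31.4 CPM in group-housed VTA, and the part of pituitary tissue in the Prl result was not tested.

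The lists of protein synthesis and energy supply had nearly all members on the higher side of 0. Of 77 cytosolic ribosomal protein genes tested, 24 had an unadjusted p under 0.05, all higher (background 2.84% higher), and 74 of 77 had a positive shared effect (53.9% of all genes). Of the 16549 genes with a mean of at least 1 CPM, 10224 had a positive shared effect and 618 were higher at that threshold, with a median of 0.04. Their median shared log2 fold change was 0.15, against 0.02 over all genes, with 0.06 in BLA and 0.19 in VTA. Rps2 had the highest shared effect of the list at 0.85, or 0.61 when summed with its copies. Next by p came Rps18 at 0.62 (SE 0.21) and Rpl23a at 0.21 (SE 0.08). Rps18 was separate in BLA (78.0 to 96.2 CPM isolated, 28.2 to 56.7 CPM group-housed) and overlapped in VTA. Its BLA effect of 1.01 (SE 0.23) was above that of Rps2 (0.81, SE 0.15). Of 73 nuclear-encoded respiratory chain subunits, 22 had an unadjusted p under 0.05, all higher (2.84% of all genes), and all 73 had a positive shared effect with a median of 0.16 (0.02 in BLA and 0.27 in VTA). Cox7c, a subunit of the terminal oxidase, stood at 97.2 to 102.7 CPM in isolated and 87.3 to 95.7 CPM in group-housed BLA, and at 89.6 to 115.9 against 79.1 to 87.5 CPM in VTA (shared 0.26, SE 0.07), separate in both. Uqcr11 (0.31, SE 0.11), of the third respiratory complex, overlapped in BLA. No member of either list passed the adjusted test in edgeR. Opposite signs in the regions were held by 26 of 77 and 29 of 73 members (57% of all genes). Summed levels were separate in VTA for both lists and overlapped in BLA. There, ribosomal protein sums were 10543 to 10958 CPM in isolated and 9737 to 11205 CPM in group-housed libraries. Respiratory chain sums were 9347 to 9768 and 8656.5 to 10130 CPM, and group-housed BLA library 2 was lowest in both lists.

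Genes around the ribosome are given next. Of 38 genes of ribosome assembly and RNA polymerase I, 3 were higher at an unadjusted p under 0.05 and 0 lower (2.84% and 2.33% of all genes), with a median of 0.04; Pno1 and Nob1, factors that finish the small subunit, had 0.24 (SE 0.10) and 0.15 (SE 0.07). Of 37 translation factors, 4 were higher and 0 lower at that threshold, with medians of -0.03 in BLA and 0.17 in VTA. Eif3f, a scaffold of translation initiation, shows the split, at 0.00 in BLA and 0.45 in VTA.

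Of 22 genes known to be induced by glucocorticoids, the stress hormones of the adrenal gland, 6 were higher at an unadjusted p under 0.05 and 0 lower (2.84% and 2.33% of all genes), and 15 were higher in both regions (5215 of all 24433 genes). The list's median was 0.19 in the shared fit, 0.04 in BLA and 0.26 in VTA. Its mean log2 CPM, centred over the libraries of a region, overlapped between groups in BLA. There it was 0.28, -0.18 and 0.04 in isolated libraries 1, 2 and 3, and -0.08 to 0.02 in group-housed ones. In VTA it was 0.12, 0.02 and 0.36 in isolated libraries 1, 2 and 3, and -0.29 to -0.10 in group-housed ones. Mt2, a metal-binding metallothionein, stood at 5.88 to 6.99 CPM in isolated and 4.75 to 5.77 CPM in group-housed BLA, and at 10.9 to 14.4 against 7.04 to 9.53 CPM in VTA (shared 0.41, SE 0.12), separate in both. Sgk1, a kinase that regulates ion channels, was separate in VTA, with 82.9, 69.004 and 169.0 CPM against 43.8, 43.2 and 45.9 CPM. In BLA it overlapped, since isolated library 1 stood at 162.8 CPM and the other 2 at 56.8 and 76.9 CPM, against 57.005 to 70.2 CPM (shared 0.95, SE 0.31). Klf15 (0.29, SE 0.09), a hormone-induced transcription factor, and Nfkbia (0.34, SE 0.12), an inhibitor of NF-kappaB, had separate groups in VTA alone.

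Members of the lists of neuronal activity and of protein stress mostly had opposite signs in the regions, as did 57% of all genes. Of 30 immediate early genes, 24 had opposite signs, with a median of -0.32 in BLA and 0.43 in VTA. In the shared fit 1 was higher (Klf2, 0.64, SE 0.20) and 1 lower (Jun, -0.26, SE 0.11) at an unadjusted p under 0.05. Together they were 6.67% of the list, against 5.17% of all genes. Of 27 heat shock and unfolded protein response genes, 25 had opposite signs, with medians of -0.13 and 0.11 and 0 at an unadjusted p under 0.05. The BLA side of that list rests on 1 library: its mean log2 CPM, centred over the libraries of a region, was 0.28 in group-housed library 3 and -0.08 to -0.03 in the other 5. Herpud1, a gene of protein disposal at the endoplasmic reticulum, was lower in all isolated BLA libraries (-0.14) and higher in all isolated VTA libraries (0.21) than in their group-housed counterparts. The VTA side of the immediate early list was uneven. Its centred mean log2 CPM was 0.68 in isolated VTA library 3, 0.18 in library 1 and -0.08 in library 2. Group-housed VTA libraries were at -0.33 to -0.14. The median shared effect was 0.09 for the immediate early list and 0.02 for the heat shock list, against 0.02 over all genes. These values thus stand beside region medians of opposite sign that rest in part on single libraries.

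The interferon list had more members lower than higher. Of 40 interferon response genes, 32 had a negative shared effect and 23 were lower in both regions (5256 of all 24433 genes), with medians of -0.14 in BLA and -0.14 in VTA; 3 were lower at an unadjusted p under 0.05 and 0 higher (background 2.33% lower). They were Tap1, Ifitm3 and Oasl2. The list's mean log2 CPM, centred over the libraries of a region, overlapped between groups in VTA. There it was -0.12 to 0.07 in isolated and -0.09 to 0.20 in group-housed libraries. In BLA it was -0.11 to -0.06 in isolated and -0.003 to 0.23 in group-housed libraries. The highest values were those of group-housed BLA library 1 (0.23) and group-housed VTA library 3 (0.20). Tap1, which carries peptides to class I molecules, stood at 2.11 to 2.77 CPM in isolated and 2.85 to 3.40 CPM in group-housed BLA, and at 3.27 to 4.46 against 4.56 to 5.53 CPM in VTA (shared -0.35, SE 0.14), separate in both. Ifitm3, a membrane protein that blocks virus entry, had -0.31 (SE 0.13), and Oasl2 -0.38 (SE 0.18). The class I list as a whole was balanced, with 13 of 26 members higher and 13 lower and a median of 0.00. Nlrc5, Tap1 and H2-Q7 were lower at an unadjusted p under 0.05 (2.33% of all genes); H2-T22 was the member higher at an unadjusted p under 0.05, at 0.88 in BLA and 0.03 in VTA. Class I genes are near-identical copies of each other, so their counts may be divided among them.

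Synaptic lists followed the VTA response. Medians of presynaptic release genes were -0.06 in BLA and 0.26 in VTA, and those of ionotropic glutamate receptors and scaffold genes -0.02 and 0.21. Of 20 genes of GABA synthesis, transport and reception, 4 were higher at an unadjusted p under 0.05 and 0 lower (2.84% and 2.33% of all genes). Gabrb2, a GABA-A receptor subunit, stood at 274.6 to 298.9 CPM in isolated against 265.6 to 267.4 CPM in group-housed BLA and at 223.7 to 253.6 against 161.7 to 196.8 CPM in VTA (shared 0.25, SE 0.08), and Gphn, the scaffold of inhibitory synapses, was at 0.12 (SE 0.05); both were separate in both regions. Of 21 clock genes, 1 (Hlf, 0.26, SE 0.11) was higher and 0 lower, or 4.76% against 5.17% of all genes. Of 9 genes known to differ among C57BL/6 substrains, Wdfy1 alone had an unadjusted p under 0.05, and Nnt, which is partly deleted in 1 substrain, stood at 44.5 to 62.2 CPM in all 12 libraries (shared 0.08, SE 0.06).

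Markers of neighbouring tissue were high in isolated VTA libraries 1 and 3, and striatal markers also in isolated BLA library 1. They are given beside these results. The 19 markers of cortical and amygdalar glutamatergic neurons had opposite signs in all 19 cases, with medians of -0.14 in BLA and 0.97 in VTA, and summed to 560 to 1696 CPM in isolated against 458 to 506 CPM in group-housed VTA. Choroid plexus markers summed to 508 to 6286 CPM in isolated and 427 to 567 CPM in group-housed VTA, but to 200.4 to 278 and 194.8 to 240.1 CPM in BLA; 5 of 19 were higher at an unadjusted p under 0.05 (2.84% of all genes). Isolated VTA library 2 lay within the group-housed range for choroid plexus (508 CPM) and striatal markers (482 CPM). Striatal projection neuron markers were higher in both regions in 17 of 19 cases, with medians of 0.39 in BLA and 0.56 in VTA and 0.68 in the shared fit, outside both, and 0 had an unadjusted p under 0.05. Their sums overlapped in BLA (2249 to 5397 CPM isolated, 1737 to 3695 CPM group-housed) and in VTA (482 to 1320 and 467 to 513 CPM). Among BLA libraries, isolated library 1 had the highest striatal sum (5397 CPM), the lowest cortical sum (2816 CPM) and the highest myelin sum (5199.5 CPM). It also held the highest BLA levels of Rps2 (159.8 CPM), Gm9866 (67.8 CPM) and Sgk1 (162.8 CPM). Isolated VTA libraries 1 and 3 had the highest sums of the cortical, choroid plexus and striatal lists among VTA libraries. Without them, and with 1 isolated VTA library left, Rps2, Gm9866 and Rrm2 kept their sign in the shared fit. That is no test of neighbouring tissue, since the BLA libraries stayed and these genes had 1 sign in both regions. With all libraries, 1264 of 24433 genes had an unadjusted p under 0.05 in the shared fit. On leaving out 1 library this ranged from 731 of 25341 (without group-housed VTA library 2) to 2204 of 25463 (without isolated BLA library 1). The part of neighbouring tissue in the other results was not tested.

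Glial and vascular lists were mixed. All 22 myelin genes tested had a positive shared effect. Their median was 0.21 (0.07 in BLA and 0.30 in VTA), above the medians of the ribosomal and respiratory lists. Only 1 (Enpp6, 0.27, SE 0.12) had an unadjusted p under 0.05, or 4.55% against 5.17% of all genes. Summed myelin levels overlapped in both regions. Medians were 0.15 for 22 microglia markers, 20 of them higher, 0.08 for 18 astrocyte markers with 0 at that threshold and 0.00 for 26 endothelial and pericyte markers. In the last list Pdgfrb, a pericyte receptor, was lower (-0.30, SE 0.11) and Postn, a matrix protein, was higher (0.64, SE 0.26). At that threshold the list had 1 higher and 1 lower member, or 7.69% against 5.17% of all genes. Postn shows how a shared effect can belong to 1 region. It stood at 24.1, 25.2 and 25.3 CPM in isolated and 11.3, 10.8 and 11.6 CPM in group-housed VTA (log2 fold change 1.11, SE 0.09; adjusted p = 0.0214 in edgeR's test of VTA alone, the only call there), and at 1.18 to 3.52 and 2.20 to 3.33 CPM in BLA (-0.02, SE 0.35). By the unadjusted p, 550 genes (2.25%) differed in BLA and 4372 (17.9%) in VTA.

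The genes with the smallest p for a difference between regions were separated in opposite directions or in VTA only. Per3, a period gene of the circadian clock, stood at 50.8 to 52.3 CPM in isolated and 41.2 to 47.5 CPM in group-housed BLA, but at 42.3 to 45.7 CPM in isolated and 58.8 to 62.4 CPM in group-housed VTA. The effects were 0.24 (SE 0.10) in BLA and -0.51 (SE 0.07) in VTA, and their difference was 0.73 (SE 0.12; adjusted p = 0.303 in edgeR). Spaca6, known for its role in sperm-egg fusion, had 0.18 in BLA, where groups overlapped, and -0.93 in VTA, where they did not (adjusted p of the difference 0.303). The other 3, Gm13052, Gm38073 and Gm48239, were noncoding or tentative entries, higher in BLA (1.68, 0.32 and 0.31) and lower in VTA (-1.62, -1.44 and -1.10), with the same adjusted p.

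**Figure D5:**
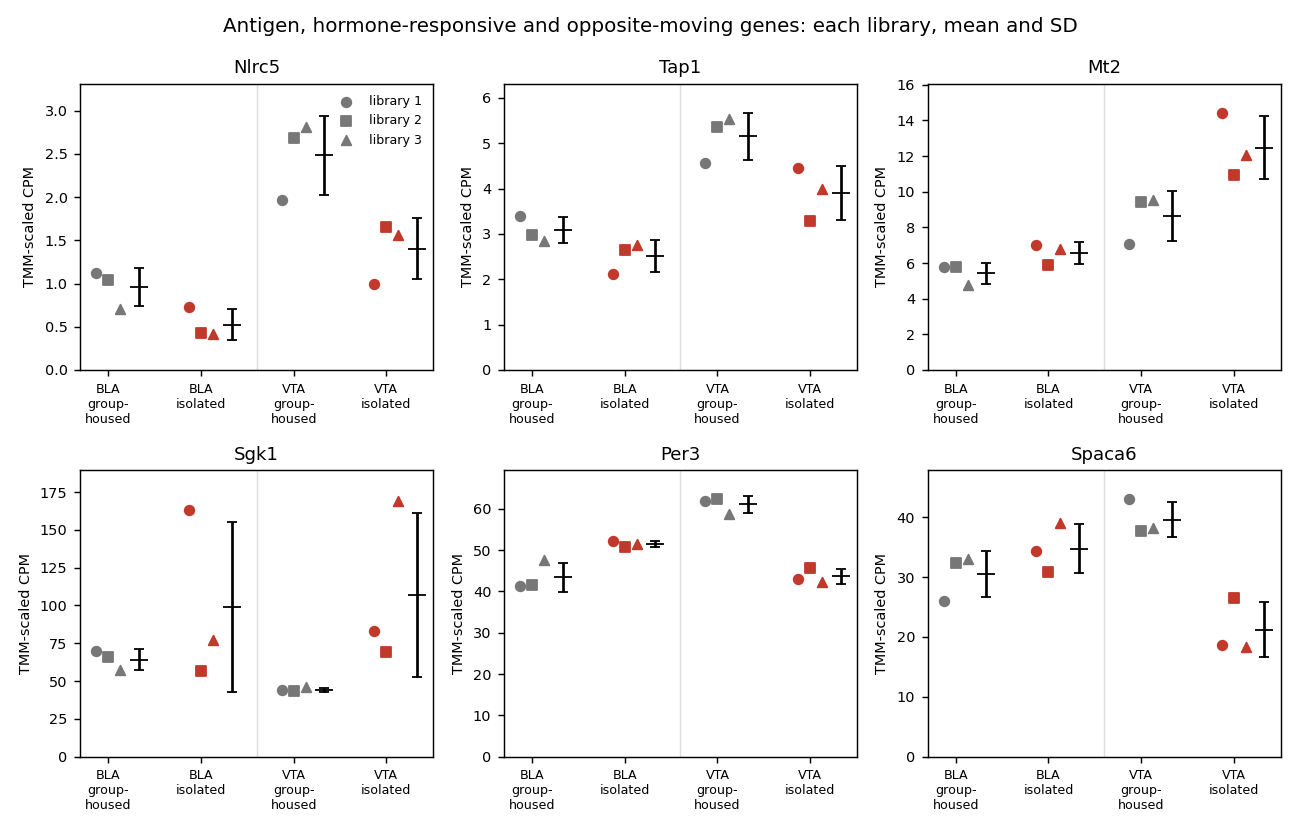
TMM-scaled CPM of Nlrc5, Tap1, Mt2, Sgk1, Per3 and Spaca6 in each of the 12 libraries, with the mean and SD of each group of 3 in black. Tap1 is lower and Mt2 higher in isolated libraries of both regions, Sgk1 has 1 high isolated library in each region (162.8 CPM in BLA and 169.0 CPM in VTA), and Per3 is higher in isolated BLA and lower in isolated VTA.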

How the data were processed

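Brain punches of 12 mouse libraries were measured by RNA-seq. Per the submitters' processing notes the authors used cutadapt, TopHat2, HTSeq and the mm10 build to make the deposited raw counts per gene; neither versions nor the annotation, strand setting and mate handling are recorded there. The labels' protocols name Trizol extraction and stranded total RNA libraries after ribosomal RNA depletion.

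The table held 54429 entries, and 53825 names (98.9%) matched the GENCODE vM21 annotation of mm10. The 3 ribosomal RNA loci and 4182 entries on X or Y were left out. The 37 mitochondrial entries held 0 counts, 26 names had turned into dates, and 2 entries disagreed between the series table, used here, and the tables of single samples. Genes passed filterByExpr (minimum count 10, minimum total 15), were scaled by TMM and were tested with edgeR 4.0.16 (robust quasi-likelihood test, R 4.3.3), with Benjamini-Hochberg adjustment over 24433 genes and a threshold of 0.05. The shared effect had region and housing as terms. BLA and VTA effects came from fits of their 6 libraries each, with their own TMM factors, and the difference from a fit of all 4 groups, so these values need not add up. A positive log2 fold change means higher after isolation. Levels are CPM from the deposited counts with TMM factors over the 12 libraries.

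The rule for named genes took Rps2, the 12 genes per direction with the smallest shared p at a mean of at least 1 CPM and 1 sign in both regions, the 5 with the smallest p for the difference, and at most 4 per list for 24 lists, of which the text gives some. Some genes that this rule takes are not reported here. Prl, 3110053B16Rik and genes beside Rps2 and Rrm2 were named after their values were seen where the rule did not take them. Members and lists were chosen with earlier results of these data known. Lists are described by counts and medians, with no test of a list.

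Replicate numbers were not used to pair libraries. Same-numbered isolated and group-housed libraries of a region deviated together with r from -0.103 to 0.363 across genes. Different-numbered ones had r from -0.296 to 0.222. The highest r was that of the libraries numbered 1 in BLA, so these values do not settle whether numbers pair libraries. On simulated counts of 24433 genes with 200 changed, the shared test recovered 51.7% at 1.5-fold, 88.1% at 2-fold and 97.5% at 4-fold. Of its calls, 5.58% were false. The changed genes all had a mean of at least 1 CPM, genes were drawn independently, and no library differed in tissue content. These rates check the test on simple counts and are not its power in these data. Alternatives used DESeq2 1.42.0, limma 3.58.1 (voom with quality weights), other scalings and filters, covariates and left-out libraries. Promoters came from RefSeq (GRCm38.p6), and figures were drawn with matplotlib 3.10.9.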

Additional observations from a re-analysis of the deposited data

How the results depend on the processing

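The shared call of 1 gene became 2 at an adjusted p of 0.1 (Prl and Rps2), 3 with no filter (Gm9866, Prl and Rps2), 5 in DESeq2, 3 with the ribosomal RNA share as covariate (Atp6v0c, Prl and Rps2), and 0 each with upper-quartile factors, X and Y genes kept, the 3 BLA libraries rich in ribosomal RNA reads left out, isolated VTA libraries 1 and 3 left out, the average of the regions' effects, or the cortical or choroid plexus marker score as covariate. It ranged from 0 to 2 on leaving out 1 library, with Rps2 and Prl called without isolated BLA library 2 or isolated VTA library 2, and Rps2 alone without isolated VTA library 3. With limma voom the 1 call was Pax3 (-1.68 in edgeR), which reversed to 0.45 in the average of the regions. With the replicate number as a block, a pairing that these data do not settle, the calls were 0 for the shared effect and 1 for the difference. They were 2 in BLA (Rps2 and Rps18) and 0 in VTA.

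For the difference between regions DESeq2 called 143 genes and the fit without isolated VTA libraries 1 and 3 called 1; leaving out 1 library gave 0 to 503, the highest without isolated VTA library 2. For BLA the count was 7 with no filter, 7 in DESeq2, 2 without the libraries rich in ribosomal RNA and 0 to 4 on leaving out 1 library (4 without isolated library 2). For VTA it was 17 with no filter, 475 in DESeq2, 0 without isolated libraries 1 and 3, and 0 to 1230 on leaving out 1 library, the highest without isolated library 2. Past the test in both regions was 1 gene in DESeq2, Rps2. Without isolated VTA libraries 1 and 3 the isolated VTA group is 1 library, and without the 3 BLA libraries rich in ribosomal RNA the group-housed BLA group is 1 library, each assumed to vary like the other groups. The cause of these changes was not tested.

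Over its alternatives the shared log2 fold change of Rps2 ranged from 0.61 to 0.92 with adjusted p from 2.46e-06 to 0.547, that of Gm9866 from 0.42 to 0.58, and that of Prl from 3.04 to 4.96, with 9 of 28 alternatives keeping its call. The median of choroid plexus markers was 0.01, and that of immediate early genes -0.15, without isolated VTA libraries 1 and 3. With 3 libraries per group a missed threshold does not show equal levels, and the simulated recovery does not give the power in these data.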
